A study of Mus musculus with 9 samples.

Results

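The 6 Iroquois homeobox genes of the mouse, *Irx1* to *Irx6*, were followed from the periocular neural crest to the embryonic cornea. They were found by matching their symbols to the Entrez gene identifiers under which expression was listed, and all 6 were among the 19369 genes listed in at least 1 of 9 samples. RNA-Seq had been performed on wild-type C57BL/6 embryos, with 3 samples of periocular neural crest (pNC) at E10.5, 3 of cornea at E14.5 and 3 of cornea at E16.5. No sample carried a transgene, a mutation or a treatment, and each pooled the tissue of several eyes. The pNC, the migratory mesenchyme that reaches the future cornea, had been isolated with dispase and freed of ectoderm, lens vesicle and optic cup, whereas the corneas held epithelium together with the layers that form from the pNC. A sample is thus an average over the cell types present, in which a change in the number of cells of a type and a change in RNA per cell cannot be told apart.

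Iroquois genes encode transcription factors of the TALE superclass, whose homeodomain carries an extra loop of amino acids between its first helices and which share a short conserved motif, the Iro box. They are the vertebrate relatives of *araucan*, *caupolican* and *mirror* of *Drosophila*, and they are known for dividing fields of cells into territories, in the neural plate, the heart, the limb and the retina. In mammals they lie in 2 clusters that arose by duplication: IrxA holds *Irx1*, *Irx2* and *Irx4*, and IrxB holds *Irx3*, *Irx5* and *Irx6*.

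In GRCm38, IrxA covered 1311.4 kb of chromosome 13. *Irx1* (Entrez 16371) lay at chr13:71958232-71963723 on the minus strand, *Irx2* (16372) at chr13:72624430-72634196 and *Irx4* (50916) at chr13:73259589-73269622, both on the plus strand. IrxB covered 882.4 kb of chromosome 8, with *Irx3* (16373) at chr8:91798511-91801654 on the minus strand, *Irx5* (54352) at chr8:92357796-92361456 and *Irx6* (64379) at chr8:92674289-92680956 on the plus strand. The members stood far apart, with 660.7 kb between *Irx1* and *Irx2*, 625.4 kb between *Irx2* and *Irx4*, 556.1 kb between *Irx3* and *Irx5* and 312.8 kb between *Irx5* and *Irx6*.

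The 250 bases before the start of a RefSeq transcript (GRCm38.p6) are shown for 3 members whose levels took different courses: *Irx3*, the most abundant at every stage (chr8:91801655-91801904, minus strand), *Irx2*, which rose late (chr13:72628570-72628819, plus strand), and *Irx4*, which rose early (chr13:73260247-73260496, plus strand). For *Irx2* and *Irx4* this transcript starts 4390 and 908 bp inside the gene span given above, which also covers transcripts that start further upstream. Capitals mark GC boxes (GGGCGG) and the CCAAT box (CCAAT), searched on both strands, and none of the matches overlap.
Irx3: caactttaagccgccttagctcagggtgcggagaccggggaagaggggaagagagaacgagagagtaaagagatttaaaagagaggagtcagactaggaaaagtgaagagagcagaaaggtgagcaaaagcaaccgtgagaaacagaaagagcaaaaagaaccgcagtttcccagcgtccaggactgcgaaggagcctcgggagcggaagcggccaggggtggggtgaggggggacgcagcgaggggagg
Irx2: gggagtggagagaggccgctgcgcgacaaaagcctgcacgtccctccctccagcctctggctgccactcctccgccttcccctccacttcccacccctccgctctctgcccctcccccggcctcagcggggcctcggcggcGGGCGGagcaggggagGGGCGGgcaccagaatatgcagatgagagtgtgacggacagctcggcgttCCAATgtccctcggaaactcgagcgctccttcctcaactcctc
Irx4: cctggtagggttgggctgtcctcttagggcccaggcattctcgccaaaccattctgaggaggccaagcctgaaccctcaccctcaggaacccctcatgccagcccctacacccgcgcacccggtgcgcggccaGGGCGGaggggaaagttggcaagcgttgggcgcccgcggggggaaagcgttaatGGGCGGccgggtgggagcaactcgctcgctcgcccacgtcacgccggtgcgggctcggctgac
All 3 windows held more CpG than the median of 6 over 32851 RefSeq promoters, with 13 in that of *Irx3*, 19 in that of *Irx2* and 22 in that of *Irx4*. Fewer CpG were held by 68.5%, 80.3% and 85.2% of promoters, in this order. The GC content of the 3 windows was 56.0%, 68.4% and 68.8%, against a median of 52.4%. The windows of *Irx2* and *Irx4* held 2 GC boxes each and that of *Irx2* also 1 CCAAT box, whereas the window of *Irx3* held neither. A GC box was present in 32.7% of all promoters and a CCAAT box in 33.8%. None of the 3 windows held a TATA box (TATAAA, in 12.4% of promoters). Promoters of *Irx1*, *Irx5* and *Irx6* are not shown here.

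Levels are given as FPKM, fragments scaled to the length of the transcript and to the mapped fragments of the sample, which can be compared between genes. Totals of expected counts, the fragments that the authors' quantification assigned to genes, ran from 8745161 to 9069023 per sample. Replicate 1 of E14.5 stood apart from the other E14.5 samples. Its mean correlation with the E16.5 samples was 0.962, against 0.918 and 0.926 for replicates 2 and 3. Its summed FPKM of 10 corneal epithelial markers (such as *Krt5*, *Krt12* and *Pax6*) was 2180, against 690.3 and 814.2. The sum of 7 stromal markers was 5655 in replicate 1, against 2171 and 3175. Markers of the labelled tissues differed between the stages. The pNC marker *Alx4* had a mean FPKM of 66.0, 16.2 and 4.10 at the 3 stages, whereas *Twist1* was as high in the corneas as in the pNC (132, 164 and 139.5). The corneal epithelial keratin *Krt12* had 0.383, 34.7 and 745, although 9 of the 10 epithelial markers also reached a mean FPKM of 1 in the pNC.

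*Irx3* was the most abundant Iroquois gene at every stage. It is best known for its part in limb bud, neural tube and heart conduction patterning. At E10.5 its FPKM was 53.5, 65.1 and 63.7 in replicates 1, 2 and 3, at E14.5 it was 96.1, 102 and 122, and at E16.5 it was 119, 123 and 131. The pNC samples lay below every corneal sample, and the 2 corneal stages overlapped. Its mean rose from 60.8 ± 6.35 (SD, n = 3 here and for all stage means below) to 107 ± 13.4 and 124 ± 6.17. Of the genes listed at a stage, 6.93% had a higher mean FPKM than *Irx3* in the pNC, 3.03% in the E14.5 corneas and 2.35% in the E16.5 corneas.

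*Irx5*, its neighbor in IrxB, is required with *Irx3* for limb and heart development and shapes the repolarization gradient of the heart wall. It followed the same course at a lower level. The FPKM of *Irx5* was 24.1, 26.2 and 28.3 at E10.5, 44.9, 49.6 and 55.7 at E14.5, and 52.8, 55.9 and 60.9 at E16.5. As for *Irx3*, the 3 pNC samples lay below all corneal samples and the corneal stages overlapped. The mean was 26.2 ± 2.11, 50.1 ± 5.43 and 56.5 ± 4.10. The FPKM of *Irx3* was 2.32 ± 0.148 times that of *Irx5* in the pNC, 2.13 ± 0.0656 times in the E14.5 corneas and 2.20 ± 0.0511 times in the E16.5 corneas. This ratio was 2.22 to 2.49 in the pNC samples, just above the 2.05 to 2.18 of the E14.5 samples, and overlapped that of the E16.5 samples (2.15 to 2.25).

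*Irx6*, the last gene of IrxB, known from retinal bipolar cells, was barely detected. Its FPKM was 0.91, 0.66 and 0.58 at E10.5, 0.29, 0.10 and 0.10 at E14.5, and 0.20, 0.24 and 0.24 at E16.5. These values rested on 19.4, 14.2 and 12.2 expected counts at E10.5 and on 2.04 to 6.13 in the corneal samples. Every pNC sample lay above every corneal sample. *Irx6* passed the filter on low counts only through its E10.5 samples, so that only a fall could be seen, and 74.8% of the listed genes had a higher mean FPKM at E10.5 and 86.8% at E14.5.

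*Irx1*, the outermost gene of IrxA, is known from lung, limb and retinal development. It climbed in both intervals. Its FPKM was 10.9, 12.3 and 8.35 at E10.5, 24.7, 17.3 and 19.0 at E14.5, and 37.4, 45.9 and 44.5 at E16.5. No sample of a stage overlapped those of another stage. The mean was 10.53 ± 2.02, 20.3 ± 3.86 and 42.6 ± 4.58, and the share of listed genes above it shrank from 38.5% in the pNC to 23.8% in the E14.5 corneas and 8.97% in those of E16.5.

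*Irx2*, which accompanies *Irx1* in many embryonic tissues, stayed low until the last stage. The FPKM of *Irx2* was 3.69, 5.16 and 4.11 at E10.5, 8.57, 2.97 and 3.83 at E14.5, and 15.1, 16.9 and 17.9 at E16.5. Replicate 1 of E14.5 was the sample of that stage with the most epithelial and the most stromal marker RNA. In *Irx2*, the E14.5 samples overlapped those of E10.5 because this replicate was above all pNC samples while replicates 2 and 3 were not. All E16.5 samples were above all others. The mean was 4.32 ± 0.757, 5.12 ± 3.02 and 16.6 ± 1.43, and without replicate 1 the E14.5 mean was 3.40.

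*Irx4*, best known from the ventricles of the heart, where it sets chamber-specific expression, had the widest span of levels among the 6 relative to the pNC. Its FPKM was 0.64, 1.61 and 2.48 at E10.5, 21.3, 16.7 and 20.2 at E14.5, and 17.8, 14.6 and 16.1 at E16.5. Every corneal sample was well above every pNC sample, and the corneal stages overlapped. The mean went from 1.58 ± 0.920 to 19.4 ± 2.37 and 16.2 ± 1.62. The pNC values rested on 15, 38 and 57 expected counts, against at least 336 in the corneas. At E10.5 the *Irx4* range overlapped that of *Irx6*, whereas at E14.5 it overlapped that of *Irx1*.

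**Figure D1:**
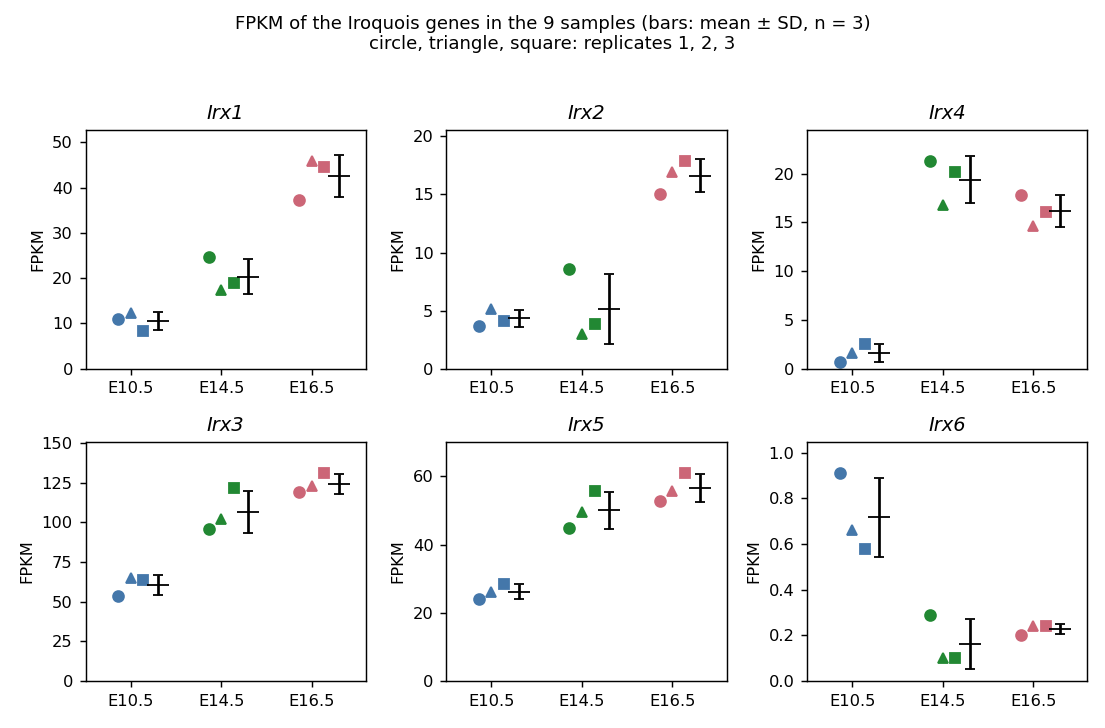
FPKM of each Iroquois gene (vertical axis, its own linear scale per panel) in the 9 samples by stage (horizontal axis), with circle, triangle and square for replicates 1, 2 and 3 and bars for mean ± SD. *Irx3* and *Irx5* step up between E10.5 and E14.5, *Irx4* goes from at most 2.48 to at least 14.6, *Irx1* climbs at both steps, *Irx2* is highest at E16.5, and *Irx6* stays below 1.

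Ordered by mean FPKM, the genes at E10.5 ran *Irx3*, *Irx5*, *Irx1*, *Irx2*, *Irx4*, *Irx6*, and only the ranges of *Irx4* and *Irx6* overlapped between neighbors. At E14.5 *Irx4* passed *Irx2*, and the order was *Irx3*, *Irx5*, *Irx1*, *Irx4*, *Irx2*, *Irx6*, in which *Irx1* and *Irx4* overlapped. At E16.5 the order was again that of E10.5, with *Irx2* and *Irx4* overlapping.

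From E10.5 to E14.5, the step from migrating crest to the early cornea, *Irx4* rose and *Irx6* fell, and 3 further members had higher levels that fell short of the fold minimum. Genes were called when the Benjamini-Hochberg adjusted p of edgeR's quasi-likelihood test was under 0.05 over all 14771 genes tested and the absolute log2 fold change was at least 1. By this rule 1 of the 6 members was higher and 1 lower, where 13.6% and 7.97% of all tested genes were. The lower one, *Irx6*, passed the filter on low counts only through E10.5, and of the other 5 members 1 was higher and 0 were lower. *Irx4* rose by a log2 fold change of 3.61 (SE 0.292, adjusted p = 3.88e-06), and its mean FPKM at E14.5 was 12.3 times that at E10.5. *Irx6* fell by 2.12 on the log2 scale (SE 0.461, adjusted p = 0.00265). *Irx1* differed by 0.93 (SE 0.168, adjusted p = 8.41e-04), *Irx5* by 0.92 (SE 0.109, adjusted p = 5.29e-05) and *Irx3* by 0.80 (SE 0.118, adjusted p = 2.28e-04), each with a small p but a fold below the minimum. *Irx2* differed by 0.23 (SE 0.323, adjusted p = 0.562), and without E14.5 replicate 1 its estimate turned to -0.34 (adjusted p = 0.144).

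Calls of *Irx1* and *Irx5* depended on single samples at this step. With the adjusted p alone, 4 members were higher and 1 lower, where 28.9% and 27.5% of tested genes were. *Irx1* passed both thresholds without E10.5 replicate 2 (1.05) or without E14.5 replicate 2 (1.04), and *Irx5* did without E14.5 replicate 1 (1.003). The median log2 fold change of the 6 members was 0.86, or 0.92 without *Irx6*, against 0.02 over all tested genes.

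From E10.5 to E16.5, 5 members were higher and *Irx6* was lower. *Irx6* passed the filter on low counts only through E10.5, and the other 5 members were all higher. Of all tested genes, 19.4% were higher and 15.4% lower, and with the adjusted p alone 35.2% and 34.7%, with the same 5 and 1 members. *Irx4* rose by a log2 fold change of 3.51 (SE 0.293, adjusted p = 1.88e-06), *Irx1* by 2.16 (SE 0.167, adjusted p = 1.14e-06) and *Irx2* by 2.09 (SE 0.309, adjusted p = 1.15e-04). *Irx5* and *Irx3* of IrxB rose by smaller log2 fold changes, *Irx5* by 1.26 (SE 0.109, adjusted p = 2.47e-06) and *Irx3* by 1.18 (SE 0.118, adjusted p = 6.68e-06). *Irx6* fell by 1.49 on the log2 scale (SE 0.436, adjusted p = 0.0102). In mean FPKM, E16.5 stood at 10.3 times E10.5 for *Irx4*, 4.04 times for *Irx1*, 3.85 times for *Irx2*, 2.16 times for *Irx5*, 2.04 times for *Irx3* and 0.316 times for *Irx6*. Both comparisons so far share the E10.5 samples, so they are not independent of each other.

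From E14.5 to E16.5, as the corneal layers completed their formation, *Irx2* and *Irx1* rose. These 2 of 6 members were higher and 0 were lower by edgeR, where 6.26% and 5.47% of all tested genes were. At an unadjusted p under 0.05, and by DESeq2 and limma, 0 members were lower as well. *Irx2* rose by a log2 fold change of 1.86 (SE 0.304, adjusted p = 0.00156), which was 2.44 without E14.5 replicate 1 and 1.58 without E14.5 replicate 2. *Irx1* rose by 1.23 (SE 0.160, adjusted p = 6.75e-04). With the adjusted p alone 4 members were higher, where 17.5% of all tested genes were higher and 17.5% lower. The added members were *Irx3*, at 0.38 (SE 0.116, adjusted p = 0.0272), and *Irx5*, at 0.33 (SE 0.107, adjusted p = 0.0327). The difference of *Irx4* was -0.10 (SE 0.233, adjusted p = 0.767) and that of *Irx6* 0.63 (SE 0.554, adjusted p = 0.408), so neither a rise nor a fall was detected for these 2 genes.

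**Figure D2:**
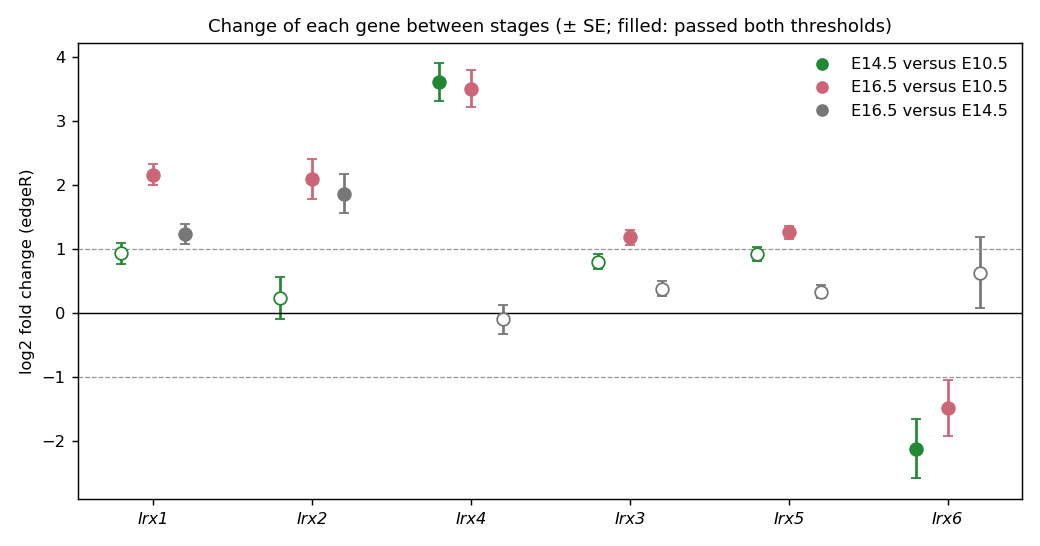
Log2 fold change by edgeR (vertical axis, with SE bars) of the 6 genes (horizontal axis) for the 3 pairs of stages. Filled points passed both thresholds and dashed lines mark the fold minimum of 1. *Irx4* rose in both comparisons with E10.5 (3.61 and 3.51), and *Irx2* rose in both comparisons with E16.5 (2.09 and 1.86). *Irx6*, which passed the count filter only through E10.5, was lower in both comparisons with E10.5.

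The IrxA genes took a growing part of the Iroquois RNA. Summed over *Irx1*, *Irx2* and *Irx4*, FPKM was 16.4 ± 2.33 in the pNC, 44.8 ± 8.91 in the E14.5 corneas and 75.4 ± 4.48 in the E16.5 corneas. Summed over *Irx3*, *Irx5* and *Irx6*, it was 87.7 ± 7.96, 156.8 ± 18.7 and 180.9 ± 10.3. The IrxA share of the total was 16.3%, 17.2% and 13.9% in the E10.5 samples, 27.9%, 19.6% and 19.5% at E14.5, and 29.0%, 30.2% and 29.0% at E16.5. No share of a stage overlapped those of another stage, and E14.5 replicate 1 was the corneal sample of that stage nearest to E16.5. By expected counts in place of FPKM the mean share at E16.5 was 28.6%, against 29.4% by FPKM. *Irx3* alone made up 58.3% ± 1.12 of the summed FPKM in the pNC, 52.8% ± 3.25 in the E14.5 corneas and 48.5% ± 0.60 in the E16.5 corneas. Within IrxA, *Irx4* stood at 0.363 ± 0.219 times *Irx2* in the pNC, 4.46 ± 1.72 times in the E14.5 corneas and 0.982 ± 0.175 times in the E16.5 corneas.

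**Figure D3:**
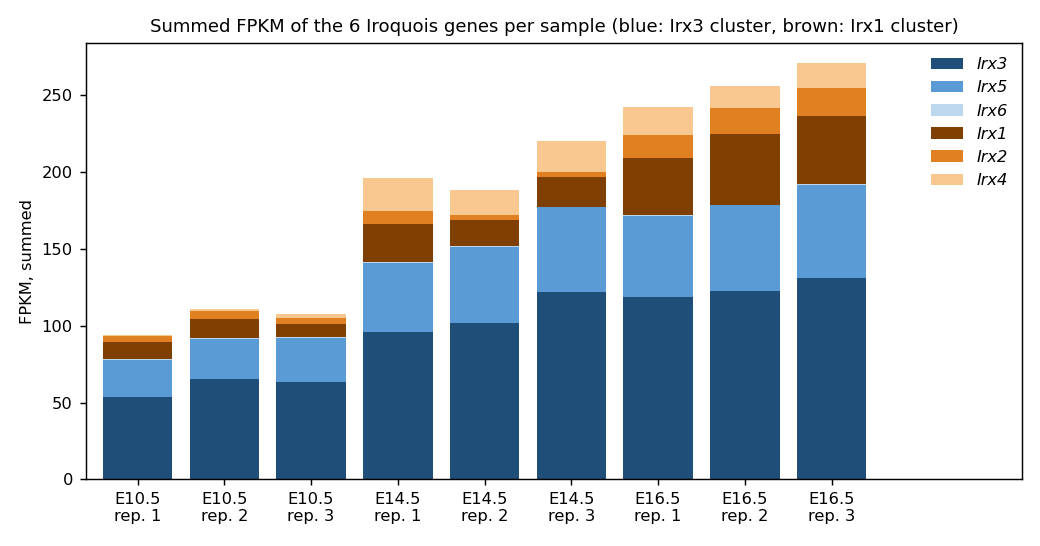
FPKM of the 6 genes stacked for each of the 9 samples (vertical axis, summed FPKM), with the IrxB genes *Irx3*, *Irx5* and *Irx6* in blue below and the IrxA genes *Irx1*, *Irx2* and *Irx4* in brown and orange on top. IrxB holds the larger sum in every sample, and the IrxA share goes from 13.9 to 17.2% at E10.5 to 29.0 to 30.2% at E16.5, with E14.5 replicate 1 at 27.9%.

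Over the 9 samples, *Irx3* and *Irx5* followed each other most closely, with a Pearson correlation of log2(FPKM + 1) of 0.992. None of the other 10937 genes compared had a higher correlation with *Irx3*, and 1 had a higher correlation with *Irx5*. The IrxA genes were less alike, at 0.886 for *Irx1* and *Irx2*, 0.751 for *Irx1* and *Irx4*, and 0.461 for *Irx2* and *Irx4*. Across the clusters, *Irx4* had a correlation of 0.951 with *Irx5* and 0.936 with *Irx3*, higher than with either IrxA gene. These correlations describe 9 samples that share stage, library and depth, and any pair of genes that both changed with stage correlates: 266 genes reached 0.9 with *Irx2*, and between 1024 and 1320 did so with each of *Irx1*, *Irx3*, *Irx4* and *Irx5*.

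The genes of most similar pattern, by the same correlation over the 9 samples, were *Tmem120b* (0.993), *Htra3* (0.991) and *C1qtnf6* (0.990) for *Irx1*, and *Mxra8* (0.987), *Bcl2l13* (0.986) and *Kcnk6* (0.981) for *Irx2*. Those of *Irx3* were *Gm11747* (0.986), *Twist2* (0.984) and *Ids* (0.977), and those of *Irx5* were *Gm11747* (0.996), *Twist2* (0.990) and *Itgav* (0.987). *Twist2*, a basic helix-loop-helix factor of mesenchyme, went from a mean FPKM of 34.5 to 185 and 254. For *Irx4* they were *Art4* (0.996), *Wnt6* (0.995), which encodes a secreted Wnt ligand known from surface ectoderm, and *Meis1* (0.993), itself a TALE homeobox gene. *Wnt6* stood at a mean FPKM of 12.9, 132 and 129 at the 3 stages. *Irx6* had no mean FPKM of 5 at any stage and was not ranked in this way.

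**Figure D4:**
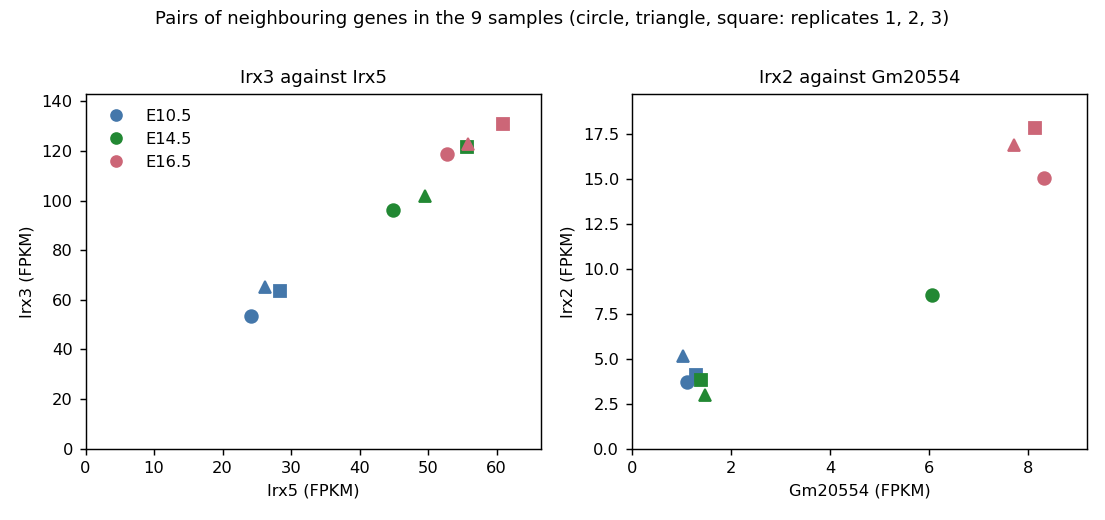
FPKM of pairs of genes in the 9 samples (linear axes from 0), with stages by color: *Irx3* against *Irx5*, and *Irx2* against *Gm20554*. *Irx3* and *Irx5* lie along a line, and in the second pair E14.5 replicate 1 sits apart from the other E14.5 samples (*Irx2* at 8.57 and *Gm20554* at 6.06).

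Long noncoding RNA genes start beside several members and run in the opposite direction. *Gm20554* starts 256 bp from the *Irx2* transcript start used for its promoter, *Crnde* starts 1676 bp from *Irx5*, and *Irx3os*, which starts 1682 bp from *Irx3*, was not listed in any sample. Strandedness of the libraries was not stated in the sources used here, so that reads from a gene and an antisense partner that overlaps it cannot be told apart, and RefSeq models of *Gm20554* and *Irx2* overlap. *Gm20554* had an FPKM of 1.12, 1.03 and 1.29 at E10.5, 6.06, 1.48 and 1.39 at E14.5, and 8.31, 7.72 and 8.13 at E16.5. As for *Irx2*, only replicate 1 of E14.5 was high before E16.5. The log2 fold change of *Gm20554* from E14.5 to E16.5 was 1.604 (SE 0.432, edgeR adjusted p = 0.0156) and from E10.5 to E16.5 2.95 (SE 0.475, adjusted p = 2.17e-04). From E10.5 to E14.5 it was 1.35 (adjusted p = 0.0364), which was not called without E14.5 replicate 1 (0.31, adjusted p = 0.112) or without any single E10.5 replicate.

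*Crnde* shared with *Irx5* a step up from the pNC to the corneas. Within E10.5 the replicates of both genes ran in the same order, and within E14.5 those of *Crnde* ran in the opposite order. Its FPKM was 13.4, 15.5 and 20.4 at E10.5, 37.2, 33.9 and 26.9 at E14.5, and 33.0, 36.2 and 32.2 at E16.5. All pNC samples were below all corneal samples and the corneal stages overlapped. It rose by a log2 fold change of 1.19 from E10.5 to E16.5 (SE 0.159, adjusted p = 5.71e-05). From E10.5 to E14.5 the change was 0.97 (SE 0.159, adjusted p = 4.54e-04), short of the fold minimum, and passed it without E10.5 replicate 3 or E14.5 replicate 3 (1.08).

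The genes around the clusters were compared as well, within 1 Mb of either end and between the members. Of 35 such genes listed in the samples, 27 could be tested, 16 around IrxA and 11 around IrxB. Of the 11 around IrxB, *Capns2* and *Ces1e* passed the filter on low counts only through E16.5, so that only a rise to E16.5 could be seen for them. *Ces1d* passed it only through corneal samples, so that relative to E10.5 only a rise could be seen for it. The other 9 had log2 fold changes above 0 in each of the 3 comparisons, with medians of 0.97, 1.30 and 0.32, although *Fto* was below 0 from E14.5 to E16.5 with scaling by library totals (-0.02) and in the limma fits (-0.01). Of these 9, 4 were called higher at E14.5 and 7 at E16.5 relative to E10.5, and 1 rose from E14.5 to E16.5, where 13.6%, 19.4% and 6.26% of all tested genes did. *Ces1d* was among the higher genes in each of these counts. With *Capns2* and *Ces1e* the counts were 5, 9 and 3 of 11. None of the 11 was lower by edgeR, DESeq2 or limma, and 0 were lower at an unadjusted p under 0.05. With no filter on low counts, 15 genes around IrxB were compared, of which 12 were above 0 in each comparison with E10.5. From E14.5 to E16.5, 13 were above 0. Mean FPKM was lower in the corneas than in the pNC for *Slc6a2* (0.21, 0.12 and 0.12 by stage) and *Ces1a* (0.093, 0 and 0), both near the floor. Around IrxA, 3 genes were higher and 2 lower from E10.5 to E14.5, 3 and 4 from E10.5 to E16.5, and 2 and 2 from E14.5 to E16.5, with medians of 0.09, 0.14 and -0.28 over 16 genes. The shares of all tested genes that were lower were 7.97%, 15.4% and 5.47%. The difference between both neighborhoods was not tested.

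On the IrxB side, *Fto*, which encodes an RNA demethylase and whose introns are known to hold distant enhancers of *Irx3*, was the nearest listed gene, 130.1 kb away. Its mean FPKM was 34.2, 53.6 and 52.9, and its log2 fold changes from E10.5 were 0.64 at E14.5 (SE 0.108, adjusted p = 5.94e-04) and 0.78 at E16.5 (SE 0.109, adjusted p = 7.92e-05), both short of the fold minimum. Beyond *Fto*, the ciliary gene *Rpgrip1l* rose by 1.20 and 1.52 and *Rbl2*, a member of the retinoblastoma family, by 1.69 and 2.14 at the corneal stages relative to E10.5. *Aktip* rose by 1.01 at E16.5, a call that was lost without E10.5 replicate 1 (0.998), without E10.5 replicate 2 (0.97) or E16.5 replicate 1 (0.96), and with scaling by library totals (0.86). On the other side, *Mmp2*, a matrix metalloproteinase 146.3 kb from *Irx6*, rose by 1.22 at E14.5 (SE 0.199, adjusted p = 4.27e-04; 0.99 without E14.5 replicate 3) and 1.52 at E16.5. *Lpcat2* rose by 1.30 from E10.5 to E16.5. *Capns2* had 3 to 6 expected counts at E10.5, 22, 4 and 5 at E14.5, and 82, 40 and 40 at E16.5, and was called higher at E16.5 than at both earlier stages. Its estimate from E10.5 to E14.5 was 1.13 (adjusted p = 0.213), and -0.04 without E14.5 replicate 1. The call of *Rpgrip1l* at E14.5 was lost without E14.5 replicate 1 (0.97). *Ces1d*, with 2 to 7 expected counts in the pNC and 216 to 301 at E16.5, was called higher in all 3 comparisons. *Ces1e*, at 0 in the E10.5 samples, had 2 to 9 expected counts at E14.5 and 28 to 43 at E16.5. As close paralogs these genes may share reads and are uncertain.

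On the IrxA side no listed gene lay to the left of *Irx1*, and *Ndufs6*, a subunit of respiratory complex I 50.3 kb beyond *Irx4*, was the nearest on the right. The log2 fold change of *Ndufs6* between pNC and E16.5 was -0.55 (SE 0.117, adjusted p = 0.00162), short of the fold minimum, so that *Irx4* and its next listed gene had opposite signs. *Trip13*, a mitotic and meiotic checkpoint ATPase, fell in all 3 comparisons (log2 fold changes of -1.08, -2.48 and -1.40), the first of which was not called without E14.5 replicate 1. *Slc12a7* was lower at both corneal stages (-1.23 and -1.98), and *Lpcat1* (-1.31) and *Eprn* (-1.45) were lower at E16.5. *Tppp* was higher at both corneal stages (2.48 and 2.64), and *Ahrr*, the repressor of the aryl hydrocarbon receptor, was higher at E16.5 than in the pNC (1.84) and at E14.5 (1.74). *Nkd2*, an inhibitor of Wnt signaling, was higher at E14.5 than in the pNC (1.49) and lower at E16.5 than at E14.5 (-1.149, and -0.97 without E14.5 replicate 2, which ended that call).

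**Figure D5:**
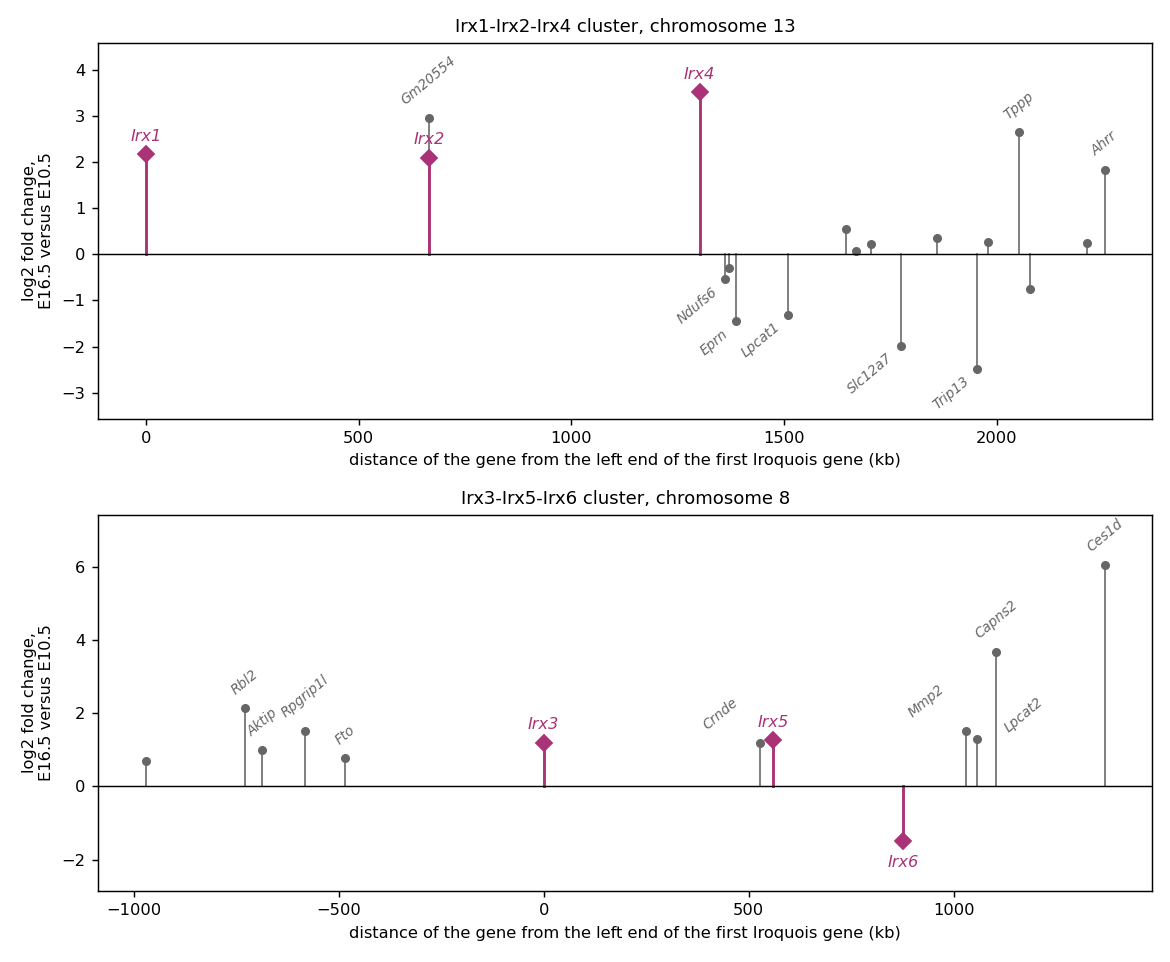
Log2 fold change from E10.5 to E16.5 by edgeR (vertical axis) of the Iroquois genes (diamonds) and the tested genes around them (circles), by distance in kb from the left end of the first Iroquois gene of each cluster (horizontal axis). Names are given for the members, for neighbors that were called and for the nearest listed genes *Fto* and *Ndufs6*, and *Ces1e* is left out because it was listed at 0 at E10.5. Around IrxB all neighbors drawn lie above 0, while *Irx6* lies below, and around IrxA neighbors lie on both sides of 0. *Capns2* passed the count filter only through E16.5, and *Ces1d* only through corneal samples.

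Among the TALE homeobox genes outside the Iroquois family, *Meis2* rose and *Pknox2* and *Mkx* fell from the pNC to the corneas. All 12 were tested. From E10.5 to E14.5, 1 was higher and 2 were lower (13.6% and 7.97% of all tested genes), from E10.5 to E16.5 1 and 3 (19.4% and 15.4%), and none was called from E14.5 to E16.5 by edgeR, although 1 was higher and 4 were lower at an unadjusted p under 0.05. DESeq2 and limma on log2(FPKM + 1) also called 0, and limma on log2(FPKM + 0.1) called 1. Their median log2 fold changes were -0.29, -0.51 and -0.11, where all tested genes had 0.02, 0.00 and -0.02. The 6 Iroquois genes had medians of 0.86, 1.68 and 0.51, and without *Irx6* 0.92, 2.09 and 0.38. *Meis2*, which encodes a homeodomain factor of limb and craniofacial development, rose by 1.69 at E14.5 (SE 0.128, adjusted p = 2.44e-06) and by 1.63 at E16.5 relative to E10.5, from a mean FPKM of 11.6 to 38.2 and 32.7. *Pknox2* (log2 fold changes of -1.36 and -2.34) and *Mkx*, a regulator of tendon formation (-2.04 and -2.50), fell at both corneal stages. *Tgif1*, a repressor in TGF-beta signaling, fell by 1.02 at E16.5 (adjusted p = 1.84e-06) but was at -0.99 without E16.5 replicate 2. *Meis1* differed by 0.72 and 0.76 and *Pbx2* by -0.71 and -0.80 at the corneal stages relative to E10.5, all with an adjusted p under 0.05 and short of the fold minimum. *Pknox2* differed by -0.98 from E14.5 to E16.5 (adjusted p = 0.0210), and passed the fold minimum without E14.5 replicate 1 (-1.28), without E16.5 replicate 3 (-1.10) and with scaling by library totals (-1.14).

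Genes described elsewhere as partners or targets of Iroquois proteins in heart, limb, gonad or craniofacial tissue moved in both directions. Of 11 listed, 10 were tested and *Kcnd2* was too low. From E10.5 to E14.5, 2 were higher and 3 lower (13.6% and 7.97% of all tested genes), from E10.5 to E16.5 2 and 4 (19.4% and 15.4%), and from E14.5 to E16.5 1 and 3 (6.26% and 5.47%), with median log2 fold changes of -0.58, -0.70 and 0.06. *Gja5* and *Smyd1* passed the filter on low counts only through E10.5, and without them 2, 3 and 2 were lower. *Gja1*, which encodes connexin 43 and is known as a target of Irx3 in the heart, rose by 1.57 at E14.5 (SE 0.084, adjusted p = 2.77e-07) and 1.46 at E16.5 relative to E10.5, with mean FPKM of 72.5, 217 and 180.3. *Vdr*, the vitamin D receptor, rose by 2.89 and 3.06 from a mean FPKM of 0.450 to 3.37 and 3.40. *Gata3*, a zinc finger factor, fell at both corneal stages relative to pNC (log2 fold changes of -5.13 and -3.79) and rose by 1.34 from E14.5 to E16.5 (adjusted p = 0.0132). That last call was lost without E14.5 replicate 3 or E16.5 replicate 1, with mean FPKM of 0.337 and 0.760 at these stages.

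*Cxcl12*, a chemokine of migrating cells, fell from E10.5 to E16.5 (log2 fold change -3.49, SE 0.411, adjusted p = 2.15e-05) and from E14.5 to E16.5 (-2.53), with mean FPKM of 71.7, 41.1 and 6.23. From E10.5 to E14.5 it differed by -0.96 (adjusted p = 0.0426), and passed the fold minimum without E14.5 replicate 2 (-1.23) or replicate 3 (-1.17). *Gja5*, which encodes connexin 40 of the heart's conduction system and of arteries, fell from E10.5 to E16.5 (-3.97) and from E14.5 to E16.5 (-3.02), the latter lost without E14.5 replicate 2 or 3 or E16.5 replicate 1. *Smyd1*, a methyltransferase of striated muscle, was lower at E14.5 than in the pNC (-2.15, adjusted p = 0.0218), a call lost without E10.5 replicate 1, and its mean FPKM was at most 0.507. *Trps1* and *Gli3* were not called in any comparison, and *Rxra* differed by 0.42, 0.82 and 0.40, short of the fold minimum.

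Cell types of the samples changed alongside the Iroquois genes. The 10 epithelial markers summed to 37.3 to 52.9 FPKM in the pNC, to 690.3 to 2180 in the E14.5 corneas and to 5321 to 7692 in the E16.5 corneas, with all 10 higher at both corneal stages than at E10.5. The 7 stromal markers, such as *Kera*, *Lum* and *Dcn*, summed to 103.9 to 160.0, 2171 to 5655 and 8800 to 10680, with *Ptgds* listed at 0 in all E10.5 samples. The 6 markers of the corneal endothelium and its precursor summed to 88.6 to 131.6, 423.6 to 610.6 and 295.9 to 358.9. The mean of *Irx4* was highest at E14.5, as this last sum was, although its corneal stages overlapped, whereas *Irx1* and *Irx2* were highest at E16.5, as the epithelial and stromal sums were. In E14.5 replicate 1, *Irx1*, *Irx2* and *Irx4* were the highest of that stage and *Irx3* and *Irx5* the lowest, and its epithelial and stromal sums were the highest of that stage and its endothelial sum the lowest.

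Markers of neurons, optic cup and retina, skeletal muscle, red blood cells and vascular endothelium had their highest sums in pNC samples. The 5 neuronal markers summed to 107.8 to 179.1 FPKM at E10.5 and to at most 2.68 in the corneas, and the 5 of the optic cup and retina to 7.33 to 28.4 and at most 6.07. The 4 skeletal muscle markers summed to 11.2 to 13.5 at E10.5 and at most 0.21 later, with *Myod1*, *Myf5* and *Myog* listed at 0 in all corneal samples. The 4 red blood cell markers summed to 3026 to 4889, 155.2 to 648 and 9.14 to 14.95, and the 4 vascular markers to 62.9 to 107, 36.9 to 67.0 and 22.3 to 32.8. Of the vascular markers, *Pecam1*, *Cdh5* and *Tek* fell in all 3 comparisons, to means of 0.827, 1.19 and 0.17 at E16.5. *Kdr* was not called in any, with means of 26.8, 30.3 and 26.2 over the stages. Pigment cell and immune markers had their highest sums at E14.5. For keratinizing skin markers, only E14.5 replicate 1 (28.2) lay above the E16.5 samples, and E14.5 replicates 2 and 3 (11.2 and 9.96) lay below them. The 4 pigment cell markers summed to 46.5 to 53.4, 55.4 to 101.8 and 26.6 to 28.6, the 4 immune markers to 18.3 to 18.7, 37.7 to 54.8 and 17.4 to 21.2, and the 3 keratinizing skin markers to 3.40 to 3.94, 9.96 to 28.2 and 14.9 to 18.1, over the stages in order. Sums of the 6 lens markers were low throughout and overlapped (0.39 to 4.13, 2.58 to 4.51 and 1.86 to 3.49), but the markers took different courses. *Cryaa* and *Crybb1*, the 2 that could be tested, were higher at both corneal stages than at E10.5. *Foxe3*, not tested, had means of 1.27, 0.137 and 0.133. The 6 pNC markers summed to 254.6 to 320.1, 246.3 to 390.3 and 201.4 to 249.7, but took different courses. *Alx1*, *Alx4*, *Pax3* and *Sox10* were lower at both corneal stages than at E10.5, and *Alx1* went from a mean of 55.9 to 0.833 and 0.0467. *Tfap2b* was higher at both, with means of 11.4, 150 and 81.2, and *Twist1* was not called. The part of these cell types in the levels of the Iroquois genes was not tested.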

How the data were processed

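The authors removed low-quality reads, mapped the rest with Bowtie2 to reference genes and with HISAT to GRCm38, and quantified genes with RSEM. Tool versions are not given in the sources used here. The deposited expected counts are estimates, not normalized, and were rounded for testing. The deposited FPKM values were scaled by the authors to transcript length and mapped fragments. The lowest listed FPKM was 0.01, and unlisted genes were set to 0. Totals of 8745161 to 9069023 expected counts make counting error small for most member values, but not for *Irx6* or for *Irx4* at E10.5.

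Entrez identifiers were matched to RefSeq genes of GRCm38 (19312 of 19369 matched). Stages and replicate numbers came from the labels. The labels do not say whether samples of a stage came from separate litters, so p-values measure the spread between these samples. Genes were filtered with filterByExpr (minimum count 10), scaled with TMM, and tested with edgeR 4.0.16 in R 4.3.3 in a quasi-likelihood model of stage over all 9 samples, with Benjamini-Hochberg adjustment over 14771 genes. Standard errors were derived from the fold change and the F statistic, and the script was tested on simulated data. edgeR fold changes differ from ratios of FPKM because TMM factors were 0.918 to 0.940 at E16.5 and 1.01 to 1.06 elsewhere. The members, gene lists and tests were chosen with earlier results of these data known. All members were described, and of the TALE, partner and neighbor lists every called gene and the nearest listed gene on each side of a cluster. Values of some list genes are not reported here, although the counts over their lists include them. For similar patterns, the 3 best correlated genes were named, among those whose mean FPKM reached 5 at some stage.

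Alternatives were DESeq2 1.42.0, limma 3.58.1 on log2(FPKM + 1) and log2(FPKM + 0.1), other scalings and filters, a replicate block, the samples of each pair of stages alone, each sample left out, and the NOISeq criterion recomputed from FPKM (probability at least 0.8, zeros set to 0.01) with Python 3.11.15, pandas 2.3.3 and numpy 2.4.6. Same-numbered samples of different stages had a mean correlation of their deviations from stage means of -0.0341 (9 pairs) and others 0.0178 (18 pairs).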

Additional observations from a re-analysis of the deposited data

How the results depend on the processing

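Over the 18 changes of members, 284 alternatives were run, of which 276 kept direction and side of the thresholds. The estimate for *Irx2* from E10.5 to E14.5 reversed to -0.34 without E14.5 replicate 1, with a range of -0.34 to 0.52 over the samples left out. *Irx6* kept its direction but was not called by limma on log2(FPKM + 1) (-0.56 and -0.48 relative to E10.5) or by the NOISeq criterion (-2.13 and -1.66). Members called from E10.5 to E14.5 numbered 2, but 1 by limma on log2(FPKM + 1), with or without a filter on low FPKM, 1 by NOISeq and 5 with no fold minimum, and 2 to 3 with a sample left out. From E14.5 to E16.5, 4 in place of 2 were called with no fold minimum. With no fold minimum, TALE genes called numbered 7, 9 and 5 in the 3 comparisons in place of 3, 4 and 0, and neighbors 17 and 14 in place of 10 and 7 from E10.5 to E14.5 and from E14.5 to E16.5. From E14.5 to E16.5, 1 TALE gene was called by library totals and by limma on log2(FPKM + 0.1), and 0 to 1 with a sample left out. Partner genes numbered 3 by both limma fits on log2(FPKM + 1) and 2 by NOISeq, in place of 5, from E10.5 to E14.5, and 1 by these 3, in place of 4, from E14.5 to E16.5, with 2 to 4 when a sample was left out. NOISeq called 5 and 4 neighbors in these comparisons. The causes were not tested, except that a fold minimum can only lower a count and that the added 1 shrinks folds of low genes.

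The IrxA share at E16.5 was 28.6% by expected counts. Dividing FPKM by TMM factors moved the E16.5 means of *Irx3* to 133.5 and *Irx5* to 60.8. Scaling by library totals moved the median of all genes to -0.15 from E10.5 to E16.5 and -0.19 from E14.5 to E16.5, and changed the genes called from 2862 higher and 2282 lower to 2503 and 2695, and from 924 and 808 to 731 and 1099. No member changed direction under this scaling. Replicate numbers were not found to pair the samples, with correlations of -0.256 to 0.216 over same-numbered pairs. A replicate block gave 2, 6 and 2 called members, 3, 4 and 0 TALE genes, 6, 6 and 4 partners and 10, 16 and 7 neighbors, and changed 1 call among these lists and members, that of *Cxcl12* from E10.5 to E14.5 (-1.12, adjusted p = 0.0139).

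With 3 samples a stage, the spread of the E14.5 samples limits the precision for *Irx2*, and counts of at most 6.13 in the corneas do so for *Irx6*.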
